A study of Drosophila melanogaster with 62 samples.

Results

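The regions described here are the euchromatic arms of chromosome 3 of Drosophila melanogaster, as contacted in trans by the dac locus on arm 2L. They were taken as every 1-kb bin of chr3L with a start below 23000000 and every bin of chr3R with a start of 4200000 or more (dm6 build), which gave 23000 bins on 3L and 27880 on 3R, 50880 of 137552 bins in all. Counts were pooled into 100-kb windows, 230 on 3L and 279 on 3R, so that 509 of the 1379 windows of the genome were members. The last window of 3R holds only 79.3 kb. Contacts were measured by circularized chromosome conformation capture (4C-seq), which sequences the DNA fragments that were ligated to a chosen viewpoint. Each of 24 libraries was counted from 2 viewpoints at dac, named PRE2 (after a Polycomb response element) and gypsy2, which gave 48 columns of counts.

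The libraries formed 8 groups of 3: wild type (WT) embryos, embryos with the gypsy1 insertion, embryos with the gypsy2 insertion, a second embryo set titled WT, and WT and gypsy2 leg imaginal discs from larvae and from pupae. The insertion is called gypsy, the name of a retrotransposon with a known insulator, and gypsy2 names both a genotype and a viewpoint. The embryo replicates titled WT 4 to 6 carry a genotype field that gives an insertion, so they were kept apart as titled WT and their genotype stayed unsettled. Some column names of the gypsy2 libraries also carry the letters enh, while the labels give only the insertion. The labels state no ages and no number of animals per library. No label says that replicates came from separate cultures of animals, so p-values measure the spread between these samples, which may be technical.

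Background. Interphase chromosomes of Drosophila occupy territories, and in many nuclei the centromeres gather at one pole and the telomeres at the other, the Rabl arrangement. Contacts between chromosomes are weak and spread over whole arms, and in 4C-seq each of them must be read at a fragment end made by a restriction enzyme. Genes controlled by Polycomb proteins, such as dac on 2L and the Hox clusters on 3R, are known to gather in shared nuclear foci.

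Trans counts, those on chromosomes 3, 4, X and Y, were 4.34 to 16.4% of the counts of a column, and the chromosome 3 euchromatin held 59819 to 1372708 of them. Between 6.28 and 61.8% of its bins held at least 1 count in a column. The 2 deepest embryo groups were gypsy2 and titled WT and the 2 shallowest were WT and gypsy1, so between embryo gypsy2 and WT depth cannot be told apart from genotype, while gypsy1 and WT were of like depth. The second replicate of larval gypsy2 stood apart: its fullest 1% of bins held 36.5% (PRE2) and 41.0% (gypsy2 viewpoint) of the chromosome 3 counts, against 6.78% in the column with the most even counts, and 4 and 2 of its windows held none.

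The clearest pattern in these regions followed short words of DNA and separated sets of libraries. Of the 16 palindromic words of 4 bases, GATC stood in 85.7% of the bins and CATG in 94.4%. As background, GATC is cut by DpnII and CATG by NlaIII, enzymes used for 4C-seq. Which enzymes were used for these libraries was not given in the sources used here. Stretches of 300 bases from 2 bins are printed to show what such bins hold, with GATC and CATG in capitals (dm6, plus strand). The first lies in an intron of dpr6, a cell-surface protein of the immunoglobulin family, and the second in an intron of hth, a homeodomain partner of Hox proteins.
chr3L:10120523-10120822: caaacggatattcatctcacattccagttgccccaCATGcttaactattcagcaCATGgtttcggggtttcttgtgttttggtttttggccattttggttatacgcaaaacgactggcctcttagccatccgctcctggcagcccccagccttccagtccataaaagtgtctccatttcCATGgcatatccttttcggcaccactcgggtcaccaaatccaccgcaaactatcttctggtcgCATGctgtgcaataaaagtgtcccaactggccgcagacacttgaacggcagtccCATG
chr3R:10561062-10561361: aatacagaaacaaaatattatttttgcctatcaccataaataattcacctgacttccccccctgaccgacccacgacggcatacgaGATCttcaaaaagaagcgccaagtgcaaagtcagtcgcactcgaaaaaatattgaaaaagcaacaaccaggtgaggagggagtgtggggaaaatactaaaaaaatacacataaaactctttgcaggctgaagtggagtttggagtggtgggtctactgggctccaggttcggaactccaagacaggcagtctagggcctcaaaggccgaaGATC

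These bins were picked for their counts and serve as examples only. The dpr6 bin (3L, 10120001 to 10121000) has 7 CATG and 0 GATC words. It held counts in 0 of the 12 columns of embryo WT and gypsy1, in 11 of the 12 columns of embryo gypsy2 and titled WT, and in 5 of the 24 leg disc columns. The hth bin (3R, 10561001 to 10562000) has 4 GATC words and 1 CATG. It held counts in 12 columns of embryo WT and gypsy1, in 0 of embryo gypsy2 and titled WT, and in 5 leg disc columns.

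Over all bins the same split was seen (the plot of occupied bins against number of words). In embryo WT and gypsy1, a median of 55.8% of bins with GATC held a count, against 14.6% of bins without it. In embryo gypsy2 and titled WT the values were 38.7 and 27.3%, and in leg discs 17.3 and 8.53%. For CATG the order of the sets turned around: 51.4 against 19.4% in embryo WT and gypsy1, but 39.1 against 6.34% in embryo gypsy2 and titled WT, and 16.6 against 7.75% in leg discs.

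The columns of the embryo sets did not overlap in either measure. The log2 ratio of occupied bins with GATC over those without was 1.21 to 2.30 in the 12 columns of embryo WT and gypsy1, 0.34 to 0.64 in those of gypsy2 and titled WT, and 0.85 to 1.42 in the 24 of leg discs. For CATG the log2 ratio was 0.96 to 1.65, 1.83 to 2.90 and 0.86 to 1.67 in the same order. The other 14 words gave ratios between -0.68 and 0.68 in every column. The sets pool labelled groups after their values were seen, so these are descriptions without a test. Whether the libraries were cut with different enzymes was not tested.

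**Figure D1:**
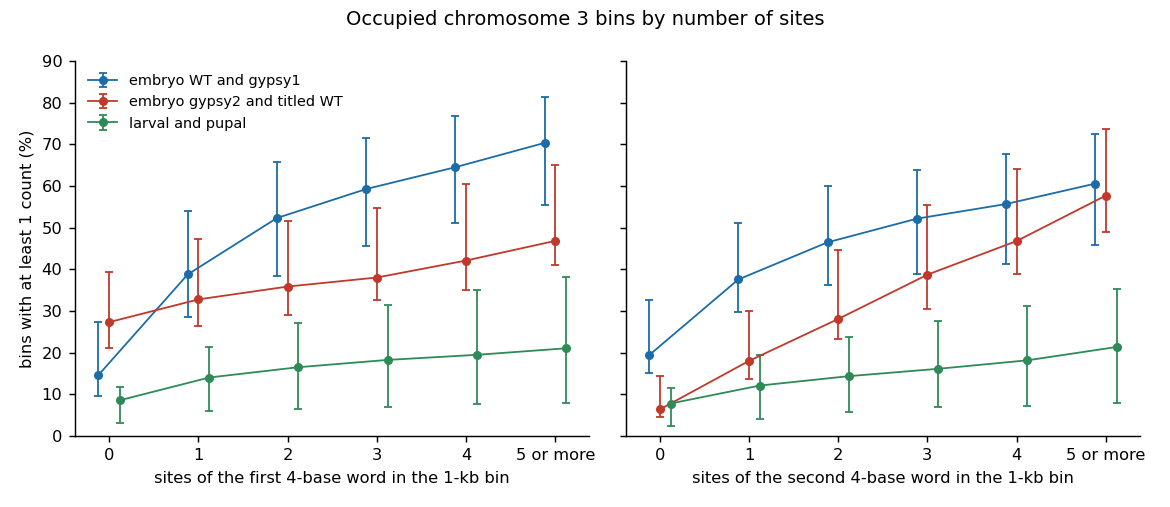
Bins of the chromosome 3 euchromatin with at least 1 count (%, vertical axis) against the number of GATC (left, first word) or CATG (right, second word) in the bin, for 3 sets of columns; points are medians over columns and bars run from the lowest to the highest column. With GATC, embryo WT and gypsy1 climbed from 14.6 to 70.4% and embryo gypsy2 and titled WT from 27.3 to 46.8%, while with CATG the latter set climbed from 6.34 to 57.7%.

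Bins with neither word numbered 469 (0.922%), and at most 0.426% of them held a count in any column. Bins with CATG but no GATC (6796, 13.4%) were occupied at a median of 15.6% in embryo WT and gypsy1, 29.2% in embryo gypsy2 and titled WT, and 9.12% in leg discs. Bins with GATC but no CATG (2401, 4.72%) gave 23.1, 7.58 and 9.25% in the same order. The order of the embryo sets was thus opposite in the 2 classes of bins, and the leg discs lay at nearly equal values in both. Just 1 bin, the hth bin shown above, held counts in all 12 columns of WT and gypsy1 and in none of gypsy2 and titled WT. The reverse was seen in 0 bins. Bins with counts in only some columns of a single embryo set were not counted.

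At the scale of 100-kb windows GATC density had the highest rho with the contact level of the 6 window features compared, in every group and from both viewpoints. A level here is the counts per bin of a window divided by the mean counts per bin of the whole chromosome 3 euchromatin in that column, so that 1 is the average. GATC density ran from 1.10 to 4.88 per kb over the 509 windows (median 2.74). Spearman's rho between it and the mean level of a group was 0.62 to 0.74 in embryo WT and gypsy1, 0.45 to 0.57 in embryo gypsy2 and titled WT, and 0.37 to 0.56 in leg discs. CATG density gave 0.06 to 0.11, 0.31 to 0.44 and -0.03 to 0.12. The number of gene starts in a window (0 to 37, median 11) also rose with the level, with rho of 0.17 to 0.51 over the groups, but it rose with GATC too (rho = 0.65). Windows rich in repeat-masked sequence had lower levels (rho -0.49 to -0.20). All these correlations run over windows of the same libraries, which share depth and mappability, and are given without a p.

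The chromosome 3 euchromatin held close to the same share of trans counts in every library. In WT it took 68.5% ± 1.02 (SD, n = 9) of trans counts from PRE2 and 68.2% ± 1.42 (SD, n = 9) from the gypsy2 viewpoint, and the paired difference between viewpoints was 0.376 points (exact sign-flip test, p = 0.199, adjusted over 4 such tests to at least 0.422). Over all 48 columns the X chromosome held 25.4% of trans counts on average and chromosome 4 held 2.27%. Per bin, the X without its centromere end stood at 0.828 times the chromosome 3 level (0.692 to 0.956 over columns) and chromosome 4 at 1.26 times (0.970 to 1.62). The number of X copies per cell was not taken into account.

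In leg discs the share from PRE2 was lower with the gypsy2 insertion. The 3 larval gypsy2 libraries gave 66.7, 65.8 and 66.1%, and the 3 larval WT libraries gave 68.3, 67.3 and 67.1%. The pupal gypsy2 libraries gave 67.3, 66.8 and 66.6%, and pupal WT gave 68.1, 70.2 and 68.9%. The groups did not overlap at either stage. Over both stages the mean was 66.5% with gypsy2 and 68.3% in WT (n = 6 each), a difference of -1.78 points (exact two-sided permutation test within stages, p = 0.005, the smallest it can give; adjusted over 8 such tests, 0.04). The share of the X moved the other way, 26.8 against 24.9% (difference 1.95 points, exact permutation p = 0.005). Adjusted over 10 tests this p was 0.05, which is not below the threshold. The 2 shares are parts of one total.

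In the same libraries, no such difference passed from the gypsy2 viewpoint. Larval gypsy2 gave 68.3, 66.5 and 66.8% and larval WT 67.3, 67.0 and 67.1%. Pupal gypsy2 gave 68.9, 67.8 and 67.8% and pupal WT 67.0, 70.5 and 67.1%. The groups overlapped at both stages, and the mean difference was 0.0399 points (exact permutation test, p = 0.95). The difference between the viewpoints' effects was -1.82 points (exact permutation test, p = 0.005, adjusted over 12 tests 0.06), which did not pass after adjustment. Within a single stage, the exact permutation test of 3 libraries against 3 cannot go below p = 0.1.

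In embryos the share ran from 66.7 to 70.2% over all groups and both viewpoints. From PRE2 it was 69.7, 68.9 and 68.4% in WT, 67.6, 67.4 and 66.7% with gypsy1, 68.6, 69.3 and 69.5% with gypsy2, and near 70.1% in each titled WT library. The gypsy1 libraries (mean 67.2% ± 0.461) lay below all WT libraries (69.0% ± 0.630), while gypsy2 and WT overlapped. None of 64 such pair tests over groups, measures and viewpoints passed after adjustment (exact permutation tests, lowest p = 0.1, lowest adjusted p = 0.246).

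**Figure D2:**
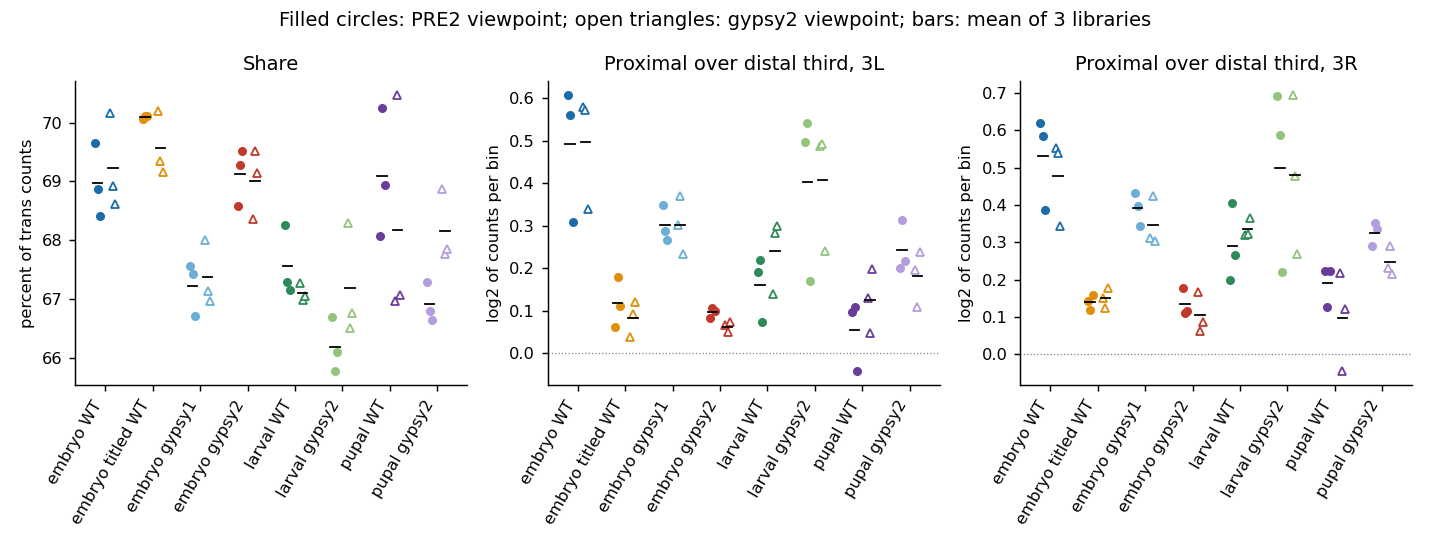
Share of trans counts in chromosome 3 euchromatin (%, left), and log2 ratio of counts per bin in the part next to the centromere over the part next to the telomere (of 3 equal parts) of 3L (middle) and 3R (right), for each library by group; filled circles are the PRE2 viewpoint, open triangles the gypsy2 viewpoint and bars the means of 3 libraries. From PRE2, the 6 leg disc libraries with gypsy2 lie below the WT libraries of their stage in the left panel.

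No difference between the arms passed in WT with the stages pooled. Over the 9 WT libraries, the log2 ratio of counts per bin on 3L over 3R was 0.016 ± 0.039 (SD) from PRE2, above 0 in 5 of 9 (exact sign-flip test, p = 0.254), and 0.019 ± 0.076 from the gypsy2 viewpoint, above 0 in 7 of 9 (p = 0.457, exact test). In leg discs gypsy2 minus WT was -0.025 (exact permutation test, p = 0.55) and 0.031 (exact p = 0.395). In embryos the sign of the group mean followed the set of libraries. From PRE2, WT lay at 0.050 ± 0.020 and gypsy1 at 0.047 ± 0.017, against -0.11 ± 0.027 with gypsy2 and -0.081 ± 0.032 in titled WT (n = 3 each). From the gypsy2 viewpoint the means were 0.046 ± 0.018, 0.032 ± 0.0090, -0.071 ± 0.028 and -0.035 ± 0.060 in the same order. There titled WT replicate 6 stood at 0.0053, so not every library followed.

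Contacts were higher near the centromere than near the telomere on both arms. Each arm was divided into 3 equal parts. Over the 9 WT libraries the part next to the centromere was above the part next to the telomere by a log2 ratio of 0.24 ± 0.22 (SD) on 3L and 0.34 ± 0.17 on 3R (PRE2), and by 0.29 ± 0.19 and 0.30 ± 0.19 (gypsy2 viewpoint). These are 1.18-, 1.26-, 1.22- and 1.23-fold. In the same order as these folds, the ratio was above 0 in 8, 9, 9 and 8 of 9 libraries, and in each case the exact sign-flip test passed (p = 0.00781, 0.00391, 0.00391 and 0.00781; adjusted over 6 tests 0.0117). For 9 libraries 0.00391 is the smallest possible p. On 3L from PRE2 the ratio did not pass when the outermost of 5 equal parts were compared (0.15, exact p = 0.0625), and in replicate 3 of larval and of pupal WT the part next to the telomere was then above the part next to the centromere (levels 1.16 against 1.09 and 1.12 against 1.07), while pupal WT replicate 2 had 1.11 in both. The viewpoints differed by less than their spread, by -0.052 on 3L (exact p = 0.254) and 0.033 on 3R (exact p = 0.316).

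Among the WT groups the mean ratio was highest in embryos, on both arms and from both viewpoints. From PRE2 the 3 embryo libraries gave log2 ratios of 0.61, 0.56 and 0.31 on 3L, larval WT gave 0.19, 0.22 and 0.074, and pupal WT gave 0.099, 0.11 and -0.042. Embryo gypsy1 had a mean of 0.30 on 3L and 0.39 on 3R. Embryo gypsy2 (0.097 and 0.14) and titled WT (0.12 and 0.14) had lower means. Larval gypsy2 had means of 0.40 and 0.50, beside 0.49 and 0.53 in embryo WT, and for the gypsy2 viewpoint 0.41 and 0.48 beside 0.50 and 0.48. The 3 embryo WT libraries lay above all 6 WT leg disc libraries on 3L, and with 3 against 3 no such pair of groups could pass. Embryo WT also had lower total counts than WT leg discs. Its log2 ratios of occupied bins with GATC over those without were higher (group means 1.70 and 1.55, against 0.96 to 1.28). The part of stage in these values was not tested.

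Over all 48 columns the mean level in 5 equal parts of the arm, from centromere to telomere, was 1.13, 1.04, 0.929, 0.890 and 1.0 on 3L and 1.20, 1.03, 0.930, 0.956 and 0.894 on 3R. On 3L the outermost part lay above the 2 before it, and there GATC density was highest as well (3.04 per kb, against 2.48 to 2.75 in the other parts). GATC density showed no trend with distance over the windows (rho = 0.01), while CATG density rose with distance (rho = 0.22). The part of either word in the levels by distance was not tested. Spearman's rho between distance and level was -0.51 to -0.34 in embryo WT and gypsy1, -0.22 to -0.13 in embryo gypsy2 and titled WT, and -0.38 to -0.14 in leg discs. In bins of 1 Mb (the plot of level by distance), larval WT from PRE2 stood at 1.34 between 1 and 2 Mb from the inner edge of 3L, fell to 0.71 between 17 and 18 Mb and reached 1.33 in the last Mb.

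With the gypsy2 insertion in leg discs the ratios from PRE2 were higher on average, by a difference that missed the threshold after adjustment. On 3L the larval gypsy2 libraries gave 0.50, 0.54 and 0.17 and the pupal ones 0.20, 0.31 and 0.22. The mean over both stages was 0.32 with gypsy2 and 0.11 in WT, a difference of 0.22 (exact permutation test, p = 0.015) that missed the threshold after adjustment over 8 tests (0.06). The pupal groups did not overlap, while larval replicate 3 fell among the larval WT values. On 3R the difference was 0.17 (exact p = 0.055, adjusted 0.13), and from the gypsy2 viewpoint 0.11 on 3L (exact p = 0.095) and 0.15 on 3R (exact p = 0.065). Without larval gypsy2 replicate 3 the last 3 differences were 0.24, 0.15 and 0.20, each past the threshold before adjustment (exact p = 0.005, 0.035 and 0.01). These were the lowest p of any single removal, and other removals gave an exact permutation p of up to 0.14, 0.195 and 0.145. No difference between the larval and the pupal effect passed in any of these measures (exact permutation test, p of at least 0.405).

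Single windows differed more than the arms. Over the 12 columns of larval and pupal WT the mean level of the 509 windows ran from 0.420 to 1.69, with quartiles at 0.840 and 1.14. Only 11 windows lay above 1.5 and 32 below 0.67. On 3L the highest was chr3L:20600001-20700000, with kni and knrl, nuclear receptors of the gap gene class: mean level 1.67, lowest 1.15, median 1.58 and highest 2.41, and above 1 in 45 of 48 columns. Its neighbour chr3L:20500001-20600000 reached 1.58 (0.585, 1.59 and 2.14). Near the telomere chr3L:600001-700000 reached 1.61 (0.249, 1.77 and 2.01).

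On 3R the highest window was chr3R:4800001-4900000, with opa, a zinc-finger protein of the pair-rule class: mean level 1.69, lowest 0.890, median 1.63 and highest 2.41. The window chr3R:9000001-9100000 holds neur, an E3 ligase of Notch signalling, Rel, the NF-kB factor of the Imd immune pathway, and tgo, a bHLH-PAS protein. It reached 1.63 (0.760, 1.64 and 2.49). At the far end of the arm chr3R:31700001-31800000, with the transcriptional repressor ttk, the nucleoside diphosphate kinase awd and the deubiquitinase faf, also reached 1.63 (1.25, 1.65 and 2.15). Each of these 3 windows was above 1 in 46 of 48 columns. These were high in nearly every library, whatever the stage, and all 3 were richer in GATC (3.01 to 4.11 per kb) than the median window.

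The lowest windows were poor in GATC with 1 exception. On 3L chr3L:5400001-5500000, with DIP-delta, a cell-surface protein of the immunoglobulin family, had a mean level of 0.420 (lowest 0.0681, median 0.414, highest 0.780) and 1.61 GATC per kb. On 3R chr3R:20100001-20200000 had 0.445 (0.172, 0.425 and 0.687; 1.62 per kb) and chr3R:22800001-22900000, with the cell adhesion gene klg, had 0.536 (0.239, 0.523 and 0.901; 1.26 per kb). They exceeded 1 in at most 3 of 48 columns. The exception, chr3L:19700001-19800000, had a level of 0.425 at 3.06 GATC per kb, and only 33 of its 100 bins ever held a count. It holds serp, a chitin deacetylase of the tracheal lumen, and SREBP, a regulator of lipid synthesis. Windows were ranked by these values, so the order carries no test.

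That window contains the longest run of empty bins: 67 bins from 19709001 to 19776000 on 3L held no count in any of the 48 columns, although they hold 3.15 GATC and 3.31 CATG per kb. Of their 36-base words, 99.8% occur more than once in the assembly, against 0.796% in the same length before the run and 11.5% after it. The gene starts in it are those of Trpml, CG42529, CG42638 and Vtld. The next longest of 1185 empty runs was 20 bins, and 94.4% of 3L bins and 95.7% of 3R bins held a count in at least 1 column.

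Windows that hold Polycomb-controlled developmental genes lay a little above the average. The 55 listed genes fall in 41 windows, whose median level was 1.0 to 1.19 over the 16 combinations of group and viewpoint, against 0.950 to 1.0 for all 509 windows. The 30 windows of 34 ribosomal protein genes had medians of 0.997 to 1.17, and both lists were richer in GATC (3.11 and 3.12 per kb) than all windows (2.74). Nothing particular to Polycomb-controlled genes is read from these levels. The 6 windows of 7 leg patterning genes had medians from 0.795 to 1.21.

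Within the Hox clusters on 3R the medians over the 48 columns differed from gene to gene. The windows of the Antennapedia complex, which patterns the head and anterior thorax, stood at 1.23 (lab), 1.27 (pb and Dfd), 1.20 (Scr and ftz) and 1.14 (Antp). Those of the bithorax complex, which patterns the posterior body, stood at 0.989 (Ubx), 0.733 (abd-A) and 0.847 (Abd-B), and abd-A was above 1 in only 6 of 48 columns. On 3L trh, a regulator of tracheal fate, stood at 1.41 and the T-box genes Doc1, Doc2 and Doc3 at 1.29. Among leg genes the window of hth stood at 1.18, ss at 1.11, Dr at 1.10, rn at 0.985, bab1 and bab2 at 0.959, and hh, which encodes the Hedgehog signal, at 0.938.

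Replicates resembled each other to very different degrees. Pearson's r of log2(count + 1) over the 509 windows had a median over replicate pairs of 0.830 (PRE2) and 0.773 (gypsy2 viewpoint) in embryo WT and of 0.803 and 0.750 in embryo gypsy1. It was 0.551 and 0.424 in titled WT, 0.494 and 0.372 in embryo gypsy2, and 0.399 and 0.431 in larval WT. In larval gypsy2 it was 0.209 and 0.312, in pupal WT 0.276 and 0.125, and in pupal gypsy2 0.260 and 0.230. The shallowest libraries, embryo WT and gypsy1, thus had the most similar windows. Thinning every column to 59819 counts moved the median of all replicate pairs only from 0.480 to 0.447 (PRE2) and from 0.375 to 0.343 (gypsy2 viewpoint). With occupied bins in place of counts it was 0.494 and 0.465.

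**Figure D3:**
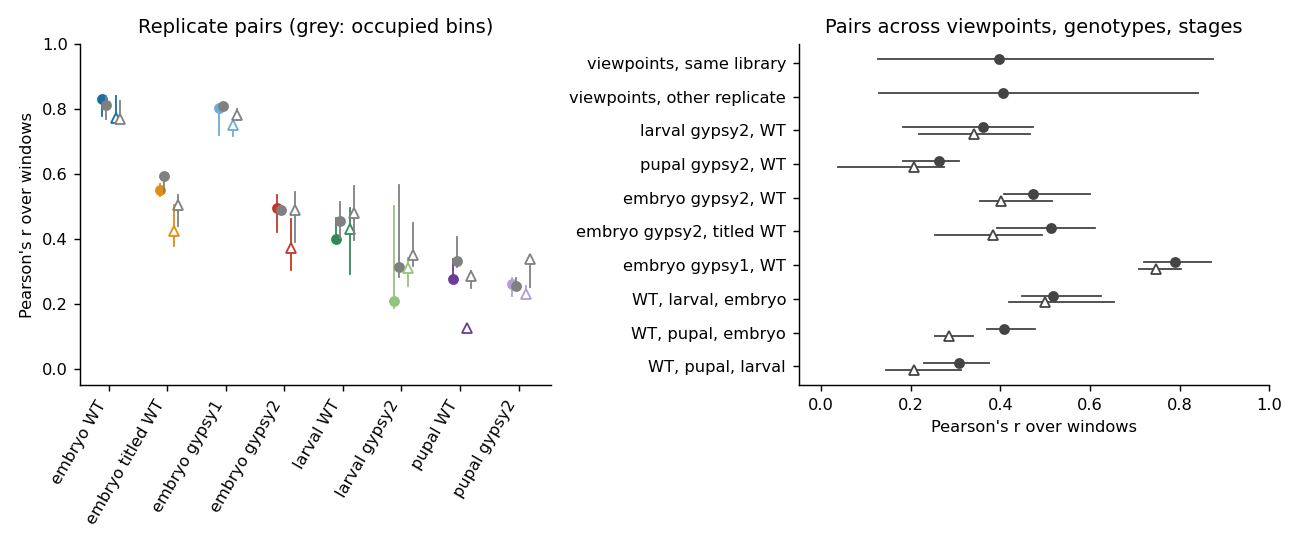
Pearson's r over the 509 windows for pairs of replicates by group (left) and for pairs across viewpoints, genotypes and stages (right); symbols are medians of pairs and bars their range, circles the PRE2 and triangles the gypsy2 viewpoint, and grey marks in the left panel use occupied bins in place of counts. By counts, the medians of embryo WT and gypsy1 run from 0.750 to 0.830 and those of pupal discs from 0.125 to 0.276.

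Pairs across viewpoints, and across genotypes in leg discs, had an r in the range of replicate pairs. Embryo gypsy2 and WT had a lower median than the replicates of WT, but one near that of the embryo gypsy2 replicates. The 2 viewpoints of one library had a median r of 0.397 (0.127 to 0.875, 24 pairs), against 0.406 for different replicates of a group across viewpoints. Between genotypes the medians were 0.361 (PRE2) and 0.342 (gypsy2 viewpoint) in larval discs and 0.264 and 0.207 in pupal discs. In embryos, gypsy1 and WT gave 0.789 and 0.747, gypsy2 and titled WT 0.513 and 0.383, and gypsy2 and WT 0.473 and 0.401. Across stages, larval and embryo WT gave 0.518 and 0.499, higher than larval replicates among themselves, and pupal and larval WT gave 0.307 and 0.207.

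Window by window, the gypsy2 insertion changed nothing that passed the test in leg discs. With edgeR's quasi-likelihood test on all windows (Benjamini-Hochberg adjusted p below 0.05), 0 of the tested chromosome 3 windows differed between larval gypsy2 and WT from PRE2, against 0% of all windows tested, and 20 had an unadjusted p below 0.05. In pupal discs 0 differed, against 0.073% of all windows, and 28 had an unadjusted p below 0.05. For the gypsy2 viewpoint the larval comparison gave 0 (0.0733% of all windows; 20 unadjusted) and the pupal one 0 (0.292% of all windows; 19 unadjusted). DESeq2 called 0 in each of these 4 comparisons. Without larval gypsy2 replicate 2, the larval comparison from PRE2 gave 1. The median standard error of a window's log2 fold change was 0.41 to 0.46 here, against 0.18 between embryo gypsy1 and WT, whose libraries had lower total counts.

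Calls were more frequent between embryo gypsy2 and WT. From PRE2, 62 of the 509 windows differed (27 on 3L, 35 on 3R), against 13.6% of all windows tested. Of these, 35 were higher with gypsy2, which stands beside 3.29% of all windows called in that direction, and 27 were lower, beside 10.3% of all windows. The other viewpoint gave 15 calls, against 3.36% of all windows tested, with 9 higher (1.68% of all windows) and 6 lower (also 1.68%). Chromosome 3 windows were thus called at about the rate of all windows (12.2% from PRE2 and 2.95% from the gypsy2 viewpoint). From PRE2 the rate for higher was 6.88%, above that of all windows, and the rate for lower 5.30%, below it. With chromosome 2 left out, 53 of 881 windows were called, 27 higher and 26 lower, of which 25 and 20 were on chromosome 3. The excess of lower over higher calls among all windows was thus not seen without chromosome 2. Chromosome 3 had more higher than lower calls in both settings. DESeq2 called 63 and 28. The counts rested on single libraries: without gypsy2 replicate 5 or WT replicate 1, 2 or 3, PRE2 gave 37, 15, 27 and 34 calls. Without gypsy2 replicate 4, 5 or 6 or WT replicate 1 or 2, the gypsy2 viewpoint gave 8, 1, 28, 1 and 1.

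The window with the smallest adjusted p from PRE2 was chr3R:28200001-28300000, with the male-specific transcript genes Mst98Ca and Mst98Cb. Its level was 0.750, 0.946 and 1.18 with gypsy2 and 0.451, 0.391 and 0.486 in WT, with no overlap, a log2 fold change of 1.11 ± 0.23 (SE, adjusted p = 0.00229). Next came 3 windows of 3L that were lower with gypsy2. The window chr3L:21000001-21100000, with the Mediator subunit gene skd, had levels of 0.964, 0.826 and 1.10 against 1.61, 1.59 and 1.79 (log2 fold change -0.80, adjusted p = 0.00279). The window chr3L:20400001-20500000, with the pseudokinase trbl and presenilin (Psn), had a log2 fold change of -0.84 (adjusted p = 0.00319), and chr3L:15000001-15100000, with the homeodomain gene ind and the pericentrin-like gene Plp, one of -0.90 (adjusted p = 0.00392).

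The last of these was also the first from the gypsy2 viewpoint. The ind and Plp window, chr3L:15000001-15100000, had levels there of 0.924, 0.643 and 0.492 with gypsy2 and 1.51, 1.28 and 1.63 in WT (log2 fold change -1.10, adjusted p = 0.00179). The window chr3R:5200001-5300000, with the afadin homologue cno, was lower with gypsy2 too (log2 fold change -0.81), while chr3R:11000001-11100000 (0.96) was higher.

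Windows also differed between titled WT and WT embryos. From PRE2, 57 windows differed (20 on 3L, 37 on 3R), against 10.4% of all windows tested. Of these 45 were higher in titled WT (3.73% of all windows were called in that direction) and 12 lower (6.72% of all windows). The chromosome 3 rates were 11.2% in all, 8.84% for higher and 2.36% for lower. With chromosome 2 left out 63 of 881 windows were called, 41 higher and 22 lower, of which 36 and 11 were on chromosome 3. The gypsy2 viewpoint gave 22 calls (3% of all windows), 15 of them higher (1.61% of all windows) and 7 lower (1.39%). Without titled WT replicate 4 or 5 or WT replicate 1, 2 or 3, PRE2 gave 37, 33, 22, 18 and 36 calls, and without titled WT replicate 4 or WT replicate 1 or 2 the gypsy2 viewpoint gave 1, 2 and 2. From PRE2 the first was chr3L:4700001-4800000, with levels of 0.731, 0.952 and 0.604 in titled WT and 0.264, 0.391 and 0.386 in WT (log2 fold change 1.13, adjusted p = 0.000543). The window chr3R:26600001-26700000, which holds a cluster of Tweedle genes for cuticle proteins, had 0.886, 0.927 and 0.747 against 0.468, 0.453 and 0.414 (log2 fold change 0.95).

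The comparisons of gypsy2 and of titled WT with WT share the 3 WT libraries, so their likeness is not read as a result. Compared with each other, embryo gypsy2 and titled WT differed in 0 chromosome 3 windows from PRE2 (0.0729% of all windows tested; 19 with an unadjusted p below 0.05) and in 0 from the gypsy2 viewpoint (0.801%; 32 unadjusted), and DESeq2 called 0 in both. Without gypsy2 replicate 6 each viewpoint gave 1 call, as the gypsy2 viewpoint did without gypsy2 replicate 4. The groups of this comparison were of like depth.

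The windows called in embryos were set apart by GATC density and by position (the plot of fold changes against GATC density). From PRE2, those higher with gypsy2 than in WT had a median of 1.58 GATC per kb and those lower 3.13, and in titled WT the medians were 1.63 and 3.09. The gypsy2 viewpoint gave 1.74 and 3.40 with gypsy2 and 1.74 and 3.21 in titled WT. The windows called higher lay a median of 19.1 to 22.3 Mb from the inner edge of the euchromatin and those called lower 3.15 to 5.45 Mb. Windows not called lay at a median of 12.25 to 12.65 Mb. Over all windows Spearman's rho of the log2 fold change with GATC density was -0.45 to -0.34 in these 4 comparisons and with distance 0.51 to 0.53. With CATG density it was 0.15 to 0.27. Between gypsy2 and titled WT the rho with GATC density was -0.05 and 0.07.

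**Figure D4:**
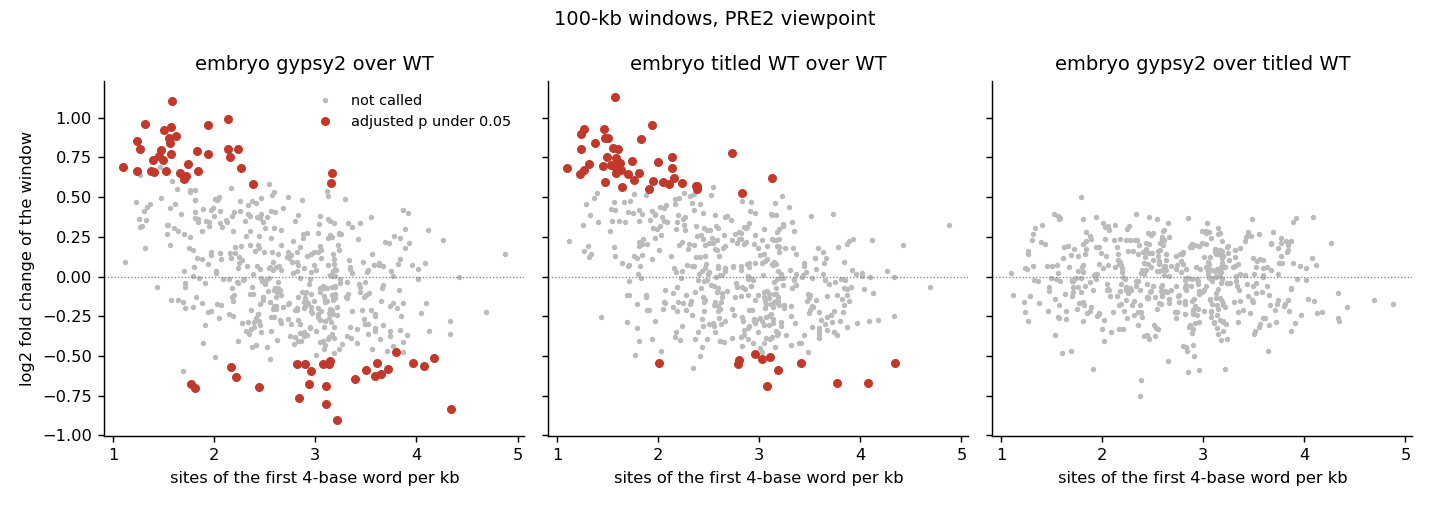
Log2 fold change of each 100-kb window of chromosome 3 euchromatin against its GATC density (first 4-base word, per kb) from the PRE2 viewpoint, for embryo gypsy2 against WT, titled WT against WT, and gypsy2 against titled WT; red points have an adjusted p below 0.05 (edgeR). The 62 and 57 called windows of the first 2 panels run from high fold changes at low density to low ones at high density, and the last panel has none.

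Fewer chromosome 3 windows were called in these comparisons when each library's own trend of counts on GATC and CATG words was taken as an offset. This alternative was chosen after seeing the data. The offset was fitted on and applied to chromosome 3 euchromatin only, so the other windows give no like background for these counts. For gypsy2 from PRE2 the count was 15 in place of 62, with 4 higher and 11 lower in place of 35 and 27, and 10 of the 15 were among the 62. For titled WT from PRE2 it was 16 in place of 57, with 9 higher and 7 lower in place of 45 and 12, and 10 of the 16 were among the 57. The median size of the log2 fold change of the 62 windows was 0.68 without and 0.42 with the offset, and 61 kept their sign. For the 57 windows it was 0.67 and 0.35. Seen from the gypsy2 viewpoint the counts were 5 in place of 15 (4 shared) and 1 in place of 22.

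The gypsy1 insertion, whose embryo libraries were as shallow as WT, gave few calls. From PRE2, 0 of the chromosome 3 windows differed from WT (0.297% of all windows tested; 28 with an unadjusted p below 0.05; DESeq2 0). The gypsy2 viewpoint gave 1 (0.295% of all windows), chr3R:8400001-8500000, with the odorant-binding protein gene Obp85a. Its level was 0.649, 0.814 and 0.816 with gypsy1 and 1.40, 1.01 and 1.23 in WT, with no overlap (log2 fold change -0.72, adjusted p = 0.0291), and the call was lost with the words' offset and without gypsy1 column 1 or 4 or WT replicate 1 or 3.

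Between larval discs and embryos the number of calls depended on the setting. Larval against embryo WT gave 1 window from PRE2 (1.33% of all windows tested) but 11 with capped bins and 11 with the replicate number as a block. The window was chr3R:21000001-21100000, with levels of 0.762, 0.479 and 0.610 in larval discs and 1.29, 1.18 and 1.49 in embryos (log2 fold change -1.11, adjusted p = 0.0233). It gave 0 from the gypsy2 viewpoint (0.958% of all windows; 48 unadjusted) and 6 with capped bins, and DESeq2 called 8 and 4. From PRE2 there were 3, 2 and 10 calls without larval replicate 1, 2 or 3 and 0 without any embryo replicate; the gypsy2 viewpoint gave 2 without larval replicate 3 and 1 without embryo replicate 3. Pupal against larval WT gave 0 from PRE2 (0% of all windows; 37 unadjusted) and 0 from the gypsy2 viewpoint (0.073% of all windows; 36 unadjusted), with 0 by DESeq2 in both.

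Between viewpoints of the same libraries, with the library as a block, 3 windows differed in embryo WT against 9.04% of all windows tested, far below the background, which includes the arms of the viewpoints' own chromosome. The first was chr3R:22200001-22300000, with the poly(A) polymerase gene Gld2, with levels of 0.374, 0.481 and 0.422 for PRE2 against 0.676, 0.737 and 0.721 for the other viewpoint (log2 fold change -0.73, adjusted p = 0.00556). The others were chr3R:14600001-14700000, with put, a receptor of the activin and BMP pathways (0.43, adjusted p = 0.0329), and chr3R:29100001-29200000 (-0.45, adjusted p = 0.0405). In larval WT 0 differed (1.55% of all windows; 17 unadjusted by edgeR) and in pupal WT 0 (2.48% of all windows; 32 unadjusted by edgeR). Without replicate 1, embryo WT gave 0 and pupal WT 4. DESeq2 was not run on this comparison.

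The windows of the gene lists were read against the share of all windows called, 13.6% (PRE2) and 3.36% (gypsy2 viewpoint) for gypsy2 against WT, then 10.4 and 3% for titled WT against WT. Of the 41 windows with Polycomb-controlled genes, 1 was called from PRE2 between embryo gypsy2 and WT, that of the homeodomain gene Ptx1, which was higher with gypsy2 (log2 fold change 0.75). The gypsy2 viewpoint gave 1 call, that of kni and knrl, which was lower (-0.67). In titled WT against WT from PRE2, 3 were called higher, those of Ptx1, the zinc-finger gene scrt (0.55) and the forkhead gene fkh (0.78). None of the 6 leg gene windows was called in any comparison. Of the 30 ribosomal protein gene windows, 3 were called between embryo gypsy2 and WT from PRE2: RpS10a was higher (0.59), and RpL26 (-0.55) and RpS29 (-0.48) were lower, a share near that of all windows. The gypsy2 viewpoint gave RpS10a again (0.70), and in titled WT against WT it gave RpL18 (0.74). The median log2 fold change of the Polycomb windows against WT was -0.18 with gypsy2 and -0.091 in titled WT from PRE2, beside -0.0073 and 0.031 for all chromosome 3 windows. Seen from the gypsy2 viewpoint it was -0.074 and 0.035, beside 0.027 and 0.017. These windows are richer in GATC (3.11 per kb) than all, and fold changes fell with GATC density; its part in the medians was not tested.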

How the data were processed

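The analysis used 4C-seq counts from 24 libraries, deposited by the authors as 6 tables of raw read counts per 1-kb bin (dm6) and viewpoint. The submitters' processing notes name Bowtie; the restriction enzymes, filters and treatment of PCR duplicates were not given in the sources used here. For the 4C-seq method the labels point to an earlier publication. All 48 columns were used, and groups were taken from the labels. Columns of gypsy1 are numbered otherwise than the labels, so they served as a group of 3. Total counts ran from 800269 to 25904672 per column.

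Counts were pooled to 100-kb windows. Trans counts excluded chromosome 2, which carries dac. Windows with a mean count of at least 10 were tested with edgeR 4.0.16 (R 4.3.3; quasi-likelihood, library size the trans counts, TMM factors of trans windows), each fit holding its 2 groups only, with Benjamini-Hochberg adjustment over all windows and a threshold of 0.05. DESeq2 1.42.0 was an alternative. Single values per library were tested by exact two-sided permutation, or by sign flips over the 9 WT libraries. The window test was tested on simulated data first. Replicate pairs differed by a chi-square of 2.64 to 317 per degree of freedom, so all libraries were counted separately. PCR reads are not independent molecules.

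Sequences, 4-base words and gene starts came from the dm6 genome and Ensembl release 115. Windows were named by rule: per arm the 3 highest and 2 lowest mean levels in larval and pupal WT, and up to 5 called windows of smallest adjusted p per comparison. All 55 listed Polycomb-controlled genes were found. The regions, lists and rules were chosen with earlier results of these data known. Same-numbered libraries of compared groups had deviations that correlated by -0.12 to 0.14. Between embryo gypsy1 and WT from the gypsy2 viewpoint the values were 0.062 to 0.14, and all 3 libraries matched their own number best. Such weak values cannot settle whether numbers pair samples, and the main fits between groups did not pair them. Alternatives covered normalization, filter, window size, capped bins (99th percentile), thinning, occupied bins, the trans definition and single libraries.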

Additional observations from a re-analysis of the deposited data

Results flagged for a closer look

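One difference between viewpoints stood out. In leg discs, the effect of the gypsy2 insertion on the chromosome 3 share of trans counts was -1.78 points from PRE2 and 0.0399 points from the gypsy2 viewpoint of the same 12 libraries. The difference between these effects was -1.82 points (exact permutation test with libraries exchanged inside each stage, p = 0.005, its lowest possible value). Adjusted over 12 tests the p was 0.06, which does not pass. All 6 gypsy2 libraries lay below the WT libraries of their stage from PRE2. The cause was not tested.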

How the results depend on the processing

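The WT share became 46.0% from either viewpoint when the other arm of chromosome 2 counted as trans. Its difference with gypsy2 in leg discs kept direction and threshold from PRE2 without any single library (-2.04 to -1.49). Seen from the gypsy2 viewpoint, it was -0.555 points with that arm (exact permutation p = 0.45), -0.0470 with capped bins (exact permutation p = 0.95) and -0.261 to 0.616 without single libraries, negative without larval or pupal gypsy2 replicate 1 or pupal WT replicate 1 or 3. WT shares without single libraries were 68.3 to 68.7% and 67.9 to 68.3%.

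The WT 3L over 3R ratio per GATC word was -0.0105 (PRE2) and -0.0072 (gypsy2 viewpoint). Leg disc gypsy2 minus WT from the gypsy2 viewpoint was -0.0094 with occupied bins. Without single libraries these ratios were 0.0093 to 0.022 and 0.0069 to 0.035 in WT, and -0.047 to 0.0018 and 0.0082 to 0.052 for gypsy2 minus WT. With the outermost of 5 equal parts, the proximal over distal ratio of 3L in WT (PRE2) was 0.15 and no longer passed (exact p = 0.0625). With occupied bins gypsy2 minus WT passed on 3L from the gypsy2 viewpoint (0.10, exact p = 0.02) and on 3R from PRE2 (0.16, exact p = 0.015). Without single libraries the ratios were 0.19 to 0.27 and 0.25 to 0.32 (3L, WT), 0.30 to 0.36 and 0.27 to 0.35 (3R, WT), 0.18 to 0.27 and 0.086 to 0.15 (3L, gypsy2 minus WT), and 0.12 to 0.24 and 0.092 to 0.20 (3R, gypsy2 minus WT). Without larval gypsy2 replicate 3 the last 3 passed (0.15, 0.24 and 0.20, with exact p = 0.035, 0.005 and 0.01). Without pupal WT replicate 1 the 3R value from the gypsy2 viewpoint did (0.18, exact p = 0.03).

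With 50-kb and 200-kb windows the median r was 0.243 and 0.497 (larval genotypes, PRE2), 0.220 and 0.465 (same, gypsy2 viewpoint), 0.192 and 0.341 (pupal genotypes, PRE2; 0.305 with occupied bins), 0.435 and 0.617 (larval and embryo, PRE2; 0.587 with occupied bins), 0.398 and 0.628 (same, gypsy2 viewpoint), 0.218 and 0.378 (pupal and larval, PRE2), and 0.135 and 0.294 (same, gypsy2 viewpoint).

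Called windows changed as follows. Embryo gypsy2 against WT from PRE2 gave 30 with 50-kb windows, 15 with the words' offset and 15 to 56 without single libraries (15 without WT replicate 1), and from the gypsy2 viewpoint 28 (DESeq2), 50 (200-kb), 30 (capped bins), 9 (chromosome 2 left out), 5 (offset) and 1 to 28 without single libraries. Titled WT against WT gave 36 (50-kb), 16 (offset) and 18 to 72 from PRE2, and 11 (DESeq2), 3 (50-kb), 2 (chromosome 2 left out), 1 (offset) and 1 to 24 from the gypsy2 viewpoint. Larval against embryo WT gave 8 (DESeq2), 0 (50-kb), 3 (200-kb), 11 (capped), 0 (chromosome 2 left out), 2 (offset) and 0 to 10 from PRE2, and 4 (DESeq2), 1 (200-kb), 6 (capped) and 0 to 2 from the gypsy2 viewpoint. Gypsy2 against titled WT gave 1 with 50-kb windows (PRE2) and 0 to 1 without single libraries from either viewpoint. Larval gypsy2 against WT gave 1 with 50-kb windows (gypsy2 viewpoint) and 0 to 1 without single libraries (PRE2, 1 without gypsy2 replicate 2). Gypsy1 against WT from the gypsy2 viewpoint gave 0 with 200-kb windows, with chromosome 2 left out and with the offset, and 0 to 1 without single libraries. The viewpoints in embryo WT gave 1 without TMM factors, 0 with capped bins and 0 to 4 without single libraries, and in pupal WT 0 to 4. All other comparisons stayed at 0 without single libraries. The cause was not tested.

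Deviations of same-numbered libraries correlated weakly at most, which cannot settle whether the numbers pair samples. With the replicate number as a block, larval against embryo WT gave 11 calls (PRE2) and 1 (gypsy2 viewpoint), larval gypsy2 against WT 1 (gypsy2 viewpoint), and gypsy1 against WT 2 by column number, an alternative chosen after seeing the data, as were the offset, the ratio per word and the correlations of occupied bins. With no library block the embryo WT viewpoints gave 0. Leg disc comparisons had median standard errors of 0.38 to 0.46 on the log2 scale, which hide smaller changes, although these libraries had higher total counts than embryo WT and gypsy1; replicate pairs of pupal discs differed by a chi-square of 124 to 317 per degree of freedom and those of embryo WT and gypsy1 by 2.64 to 6.22.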
